A study of Mus musculus with 4 samples.

Results

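The let-7 family was examined here through its mature 5p arms, let-7a, b, c, d, e, f, g and i and miR-98, in the stromal-vascular fraction (SVF) of mouse visceral white adipose tissue (visWAT). The 9 members were picked by name from the probe annotation of the arrays, among 1247 mouse miRNAs. All 9 were detected by the scanner software on every array. The question was whether these miRNAs changed when the tissue was stimulated through the β3-adrenoceptor.

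The SVF is what remains of digested fat once the floating adipocytes are taken off, and it holds preadipocytes, fibroblasts, vascular cells and blood-derived cells. It came from female C57BL/6 mice aged 8 weeks that received either CL-316243 (CL), a β3-adrenoceptor agonist used to induce browning of white fat, at 1 mg/kg for 3 days, or PBS (vehicle) for the same time. The labels name no altered allele in either group. Each group had 2 one-colour Agilent miRNA arrays, each of RNA pooled from several mice per the study's legend, so that no array shows the spread between single mice. The strain labels count upward from sample to sample (C57/BL6 to C57/BL9), and the labels give the injections as subcutaneous where the study's methods give intraperitoneal.

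let-7 was one of the earliest miRNAs found, as a gene that times larval development in the nematode Caenorhabditis elegans. In mammals it is expressed from many loci, accumulates as cells differentiate, and is held down in stem cells and embryonic tissue by the RNA-binding protein LIN28, which blocks processing of its precursors. Its targets include Hmga2, Lin28 itself, Ras genes and components of insulin signalling, and it has been described as restraining the clonal expansion of preadipocytes through Hmga2.

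The mature sequences are shown because the family is defined by them and because the members differ at so few bases that their array signals may overlap. They are given 5′ to 3′ from RefSeq (GRCm38.p6), with the seed, bases 2 to 8, in capitals and the prefix mmu for mouse.
mmu-let-7a-5p: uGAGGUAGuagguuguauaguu
mmu-let-7b-5p: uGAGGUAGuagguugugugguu
mmu-let-7c-5p: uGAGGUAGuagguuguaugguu
mmu-let-7d-5p: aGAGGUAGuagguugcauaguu
mmu-let-7e-5p: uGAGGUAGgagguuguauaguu
mmu-let-7f-5p: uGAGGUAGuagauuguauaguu
mmu-let-7g-5p: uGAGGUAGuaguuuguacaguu
mmu-let-7i-5p: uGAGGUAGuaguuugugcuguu
mmu-miR-98-5p: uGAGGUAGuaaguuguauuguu

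All 9 were 22 nt long and shared the seed GAGGUAG, the stretch that pairs with target mRNAs. Outside it, each member differed from let-7a-5p at 1 to 4 positions, counted from 1 at the 5′ end. let-7c-5p (A19G), let-7e-5p (U9G) and let-7f-5p (G12A) carried 1 difference each. let-7b-5p carried A17G and A19G, let-7d-5p carried U1A and U16C, let-7g-5p carried G12U and U18C, and miR-98-5p carried G11A and A19U. let-7i-5p was farthest from let-7a-5p, with G12U, A17G, U18C and A19U.

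The 9 mature forms are encoded by 12 hairpins in RefSeq (GRCm38.p6). Mirlet7a-1 (chr13:48538179-48538272), Mirlet7f-1 (chr13:48537829-48537917) and Mirlet7d (chr13:48536012-48536114) lay together within 2261 bp. Mirlet7c-2 (chr15:85706603-85706697) and Mirlet7b (chr15:85707319-85707403) lay within 801 bp, inside the annotated span of the lncRNA gene Lncppara. Mirlet7f-2 (chrX:151912346-151912428) and Mir98 (chrX:151913214-151913321) lay within 976 bp inside Huwe1. Mirlet7g (chr9:106178840-106178927) lay inside Wdr82, whereas Mirlet7i (chr10:122985640-122985724) lay inside no other gene of that table. The remaining hairpins each sat near hairpins of the miR-99/100 and miR-125 families and are described with those neighbours.

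The probes of the members were no longer than the miRNAs and were set against all 9 mature sequences to see how far they could separate the members. Each member had 2 probes, printed in 20 spots each, and the 18 probes were 18 to 22 nt long. The longer probe is shown for let-7a-5p, for 3 of the 4 members at 1 mismatch from it, and, for contrast, for let-7i-5p and miR-98-5p, as the files give it, in lower case.
let-7a-5p probe: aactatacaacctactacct
let-7c-5p probe: aaccatacaacctactacc
let-7e-5p probe: aactatacaacctcctacc
let-7f-5p probe: aactatacaatctactacctc
let-7i-5p probe: aacagcacaaactactacctc
miR-98-5p probe: aacaatacaacttactacctca

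All 18 probes were complementary to their own miRNA without a mismatch, and none was fully complementary to another member. No probe sequence of the array was listed under more than 1 miRNA. However, 12 of the 18 probes had only 1 mismatch to at least 1 other member, in 20 combinations of probe and miRNA, 8 of which were G:T pairs. Both let-7a-5p probes lay 1 mismatch from let-7c, d, e and f, and the let-7b, c, d, e and f probes lay 1 mismatch from let-7a or let-7c. The 6 probes of let-7g-5p, let-7i-5p and miR-98-5p had at least 2 mismatches to every other member. The values of let-7a to let-7f are therefore those of probes that differ by a single base from a relative's target. Cross-hybridisation among them was not tested.

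**Figure D1:**
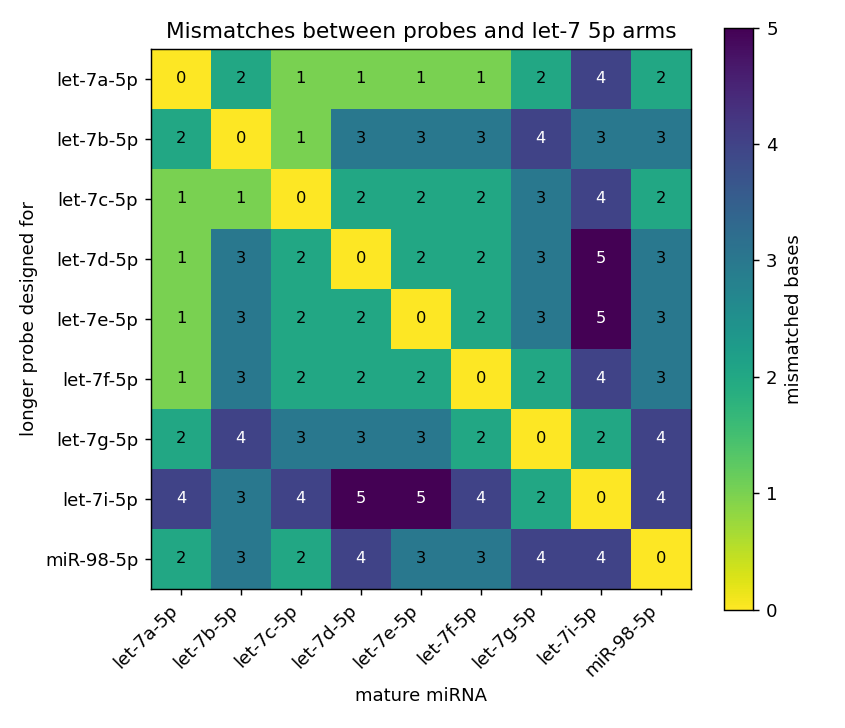
Mismatched bases between the longer probe of each member (rows) and the mature sequence of each member (columns), as numbers and shading. The diagonal is 0 throughout, let-7a-5p stands at 1 mismatch with let-7c, d, e and f, and the probes of let-7g, let-7i and miR-98 have at least 2 mismatches to every other member.

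Each array gave signals for 49880 miRNA spots, of which none was saturated. The scanner software detected 431 and 420 miRNAs with vehicle, 386 and 403 with CL, and 425 miRNAs detected on both arrays of a group were tested. All 4 arrays shared 1 slide, with the vehicle arrays in one row and the CL arrays in the other, so that row and treatment cannot be told apart. Markers of SVF cells were all detected on the 4 arrays, 12 of 12. Values of a marker list are the log2 of its summed linear signals. The endothelial markers (2 of 2 detected) were at 13.79 to 13.92 on the vehicle and 12.32 to 12.65 on the CL arrays. Leukocyte markers (4 of 4) were at 10.75 to 11.16 and 11.69 to 11.73, fibroblast and mural markers (4 of 4) at 10.73 to 11.21 and 11.70 to 11.79, and red cell markers (2 of 2) at 12.99 to 13.21 and 13.79 to 14.03. Of markers of other tissues, liver miR-122-5p was detected on no array, 3 of 4 epithelial markers on none, and the 3 muscle markers and the neuronal miR-124-3p on all. miR-124-3p stood at 9.25 and 9.93 in the vehicle samples against 7.75 and 8.07 after CL. In RNA from a mixture of cells, fewer cells of a type and less RNA per cell cannot be told apart.

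After CL treatment every let-7 5p arm had a mean within 0.26 of its vehicle mean on the log2 scale. Values are log2 signals after normalization, and a difference is CL minus vehicle. No member passed limma's test, 0 of 9 at an adjusted p of 0.05, where 0% of all 425 tested miRNAs passed. At an unadjusted p of 0.05 it was again 0 of 9, beside 34.8% of all tested miRNAs, 79 of them higher and 69 lower after CL. The median difference over the members was −0.03, beside −0.01 over all tested miRNAs. All 9 lay between the quartiles of the tested miRNAs, −0.33 and 0.34, and their median absolute difference was 0.07 beside 0.34 for all.

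let-7a-5p, which is made from hairpins on 2 chromosomes, was at 12.92 and 12.76 in the vehicle samples against 12.69 and 12.84 after CL. The groups overlapped, and the difference was −0.07 ± 0.14 (SE, n = 2 per group, limma adjusted p = 0.737). let-7f-5p, whose hairpins lie beside those of let-7a, let-7d and miR-98, was at 12.32 and 12.08 against 11.95 and 12.10, a difference of −0.17 ± 0.15 (limma adjusted p = 0.435). Here vehicle replicate 1 was highest and the other 3 arrays lay close together. let-7d-5p was at 11.12 and 11.17 against 10.95 and 11.20, with the lowest and the highest value both on CL arrays.

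let-7b-5p was at 12.53 on both vehicle arrays and at 12.41 and 12.59 on the CL arrays, which lay on either side of them. let-7c-5p, the member encoded next to let-7b and in a second locus beside miR-99a, was at 12.81 and 12.72 in the vehicle samples against 12.90 and 12.99 after CL. Both CL arrays were above both vehicle arrays, by 0.18 ± 0.12 in the mean (95% interval −0.14 to 0.50, limma adjusted p = 0.321). It was the largest difference upward among the members and did not pass the test.

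let-7e-5p, encoded between miR-99b and miR-125a, had the largest difference of all members. It was at 10.22 and 10.38 in the vehicle samples against 9.98 and 10.10 after CL, with both CL arrays below both vehicle arrays. The difference of −0.26 ± 0.13 (95% interval −0.62 to 0.09, limma adjusted p = 0.216) did not pass the test, and 42.4% of the tested miRNAs differed by less.

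The 3 members with the most distinct probes had differences between −0.01 and 0.07. let-7g-5p was at 11.14 and 11.06 against 11.07 and 11.20, with overlapping groups. let-7i-5p was at 11.03 and 11.01 against 11.06 and 11.12, so that the CL arrays were above the vehicle arrays by 0.07 ± 0.11 (limma adjusted p = 0.696). miR-98-5p, the member outside the let-7 naming, was at 7.39 and 7.26 against 7.20 and 7.43, a difference of −0.01 ± 0.14 (limma adjusted p = 0.967).

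**Figure D2:**
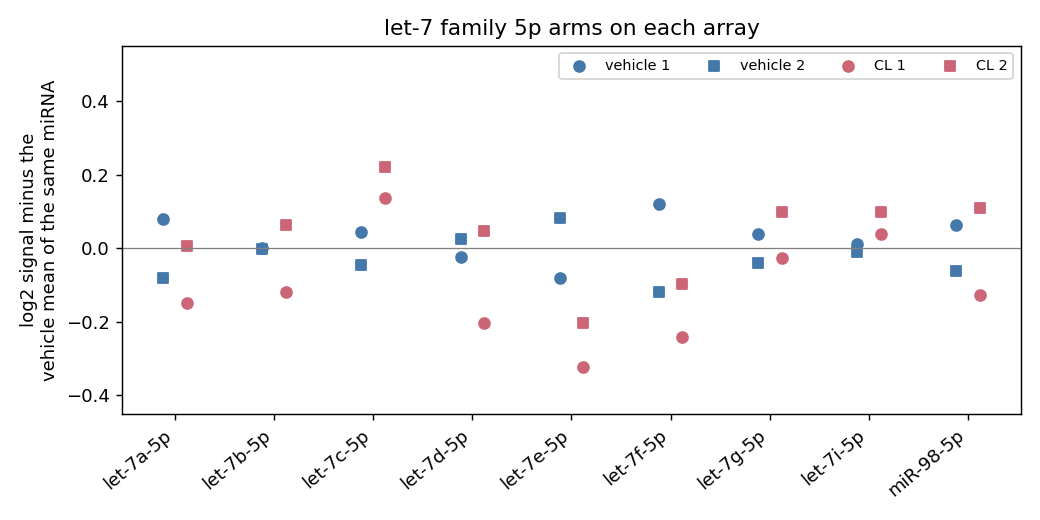
Log2 signal of each member on each of the 4 arrays, minus the mean of its 2 vehicle arrays, with vehicle and CL in separate colours and the replicate number as marker shape. Only let-7c, let-7e and let-7i have both CL points on one side of both vehicle points, and CL replicate 2 lies above CL replicate 1 for all 9.

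The groups did not overlap for 3 of the 9 members, beside 72.9% of all tested miRNAs. let-7c and let-7i had CL above, as 38.1% of all did, and let-7e had CL below, as 34.8% of all did. For 2 arrays against 2, the exact permutation test of a single miRNA cannot give a two-sided p under 0.333. Taking the replicate number as a block, which is also the column of the slide, the lowest adjusted p of a member in limma was 0.287, and again 0 of 9 passed, beside 9.41% of all tested miRNAs. None of the 9 passed the unadjusted threshold with the block, beside 35.3% of all. The standard errors of the members were 0.11 to 0.15, near the median of 0.16 over all tested miRNAs. Their 95% intervals reached at most a 1.53-fold difference, for let-7e-5p, and differences inside these intervals remain compatible with the values of these arrays. Only let-7e-5p kept its sign under all 23 processing alternatives, though those of filter, test or block alone could not change a sign. let-7c-5p was at −0.13 without normalization between arrays and at −0.20 with its longest probe only, and the median of the members was 0.14 with scaling to the 75th percentile of all probes, which moved the median of all tested miRNAs to 0.14 as well.

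**Figure D3:**
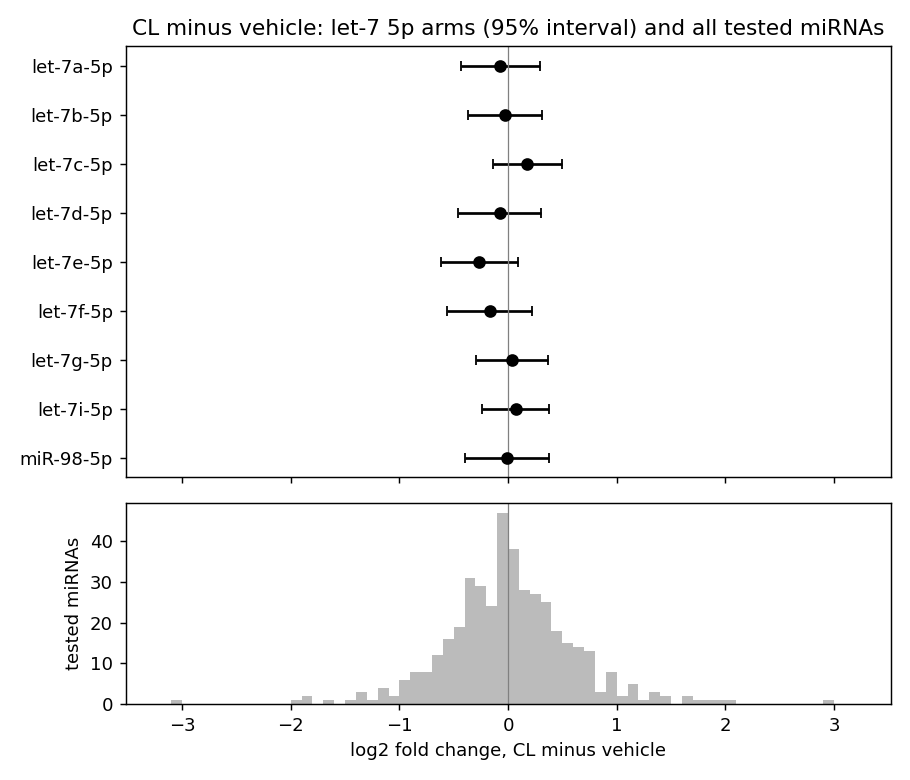
Difference between CL and vehicle for each member with its 95% interval from limma (upper panel), and the distribution of the same difference over the 425 tested miRNAs (lower panel), both on the log2 scale. The members lie between −0.26 and 0.18 and every interval includes 0.

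The members shared a small pattern from array to array. CL replicate 2 was above CL replicate 1 for 9 of 9 members, and vehicle replicate 2 was below vehicle replicate 1 for 7 of 9. The same directions were not counted over all tested miRNAs, so that they are not shown to be particular to let-7. Averaged over the 9 members, each centred on its own mean, the profile was 0.05 and −0.01 for vehicle and −0.09 and 0.06 for CL. The gap between the 2 CL arrays (median 0.14, up to 0.25 for let-7d-5p) was thus larger than the median absolute difference between groups, 0.07. The gap between the 2 vehicle arrays was 0.09 at the median and at most 0.24, for let-7f-5p. Over all tested miRNAs the order was the other way round, with a median gap of 0.10 between CL arrays and 0.27 between vehicle arrays.

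By the same centred profile, the miRNAs most like the mean of the members, of 353 detected on all 4 arrays, were miR-744-5p, miR-130a-3p and miR-181b-5p, at root mean square differences of 0.0193, 0.0251 and 0.0270 on the log2 scale. The members' own distances from it were 0.0223 to 0.138, and 23.5% of the 353 miRNAs lay below the larger value. With 4 arrays and so flat a profile, likeness of this kind is shared by many miRNAs.

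The 2 probes of a member gave different answers in several cases. All 1440 member spots were well above background, and the median scanned signal of a member probe ranged from 132 for the shorter miR-98-5p probe to 14363 for the longer let-7c-5p probe. The longer probe had the lower CL-minus-vehicle difference for 7 of the 9 members, with medians of −0.17 for the longer and 0.05 for the shorter probes. Probe pairs of other miRNAs were not compared, so that this is not shown to be particular to let-7. let-7c-5p showed the widest gap. Its shorter probe was higher after CL by 0.29 and its longer probe was at −0.23, so that its overall difference of 0.18 had the direction of the shorter probe. let-7b-5p (−0.31 longer, 0.05 shorter), let-7a-5p (−0.24 and 0.05) and let-7i-5p (−0.00480 and 0.23) also had probes on opposite sides of 0, whereas both probes of let-7g-5p (0.01 and 0.06) and of miR-98-5p (−0.02 and 0.00176) were near it. let-7e-5p (−0.36 and −0.18), let-7d-5p (−0.10 and −0.11) and let-7f-5p (−0.17 and −0.20) were below 0 with both.

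As scanned, before any normalization, the shorter let-7c-5p probe had median signals of 5058 and 4723 in the vehicle samples against 4168 and 5224 after CL, and the longer probe had 14363 and 13503 against 11084 and 13871. CL replicate 1 was lowest for both probes, and the groups overlapped for both. These raw values still hold the difference in brightness between whole arrays. For let-7e-5p the longer probe was scanned at 1956 and 1831 in the vehicle samples against 1227 and 1582 after CL, with both CL arrays lower. Its shorter probe was at 951 and 874 against 646 and 794, in the same order.

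**Figure D4:**
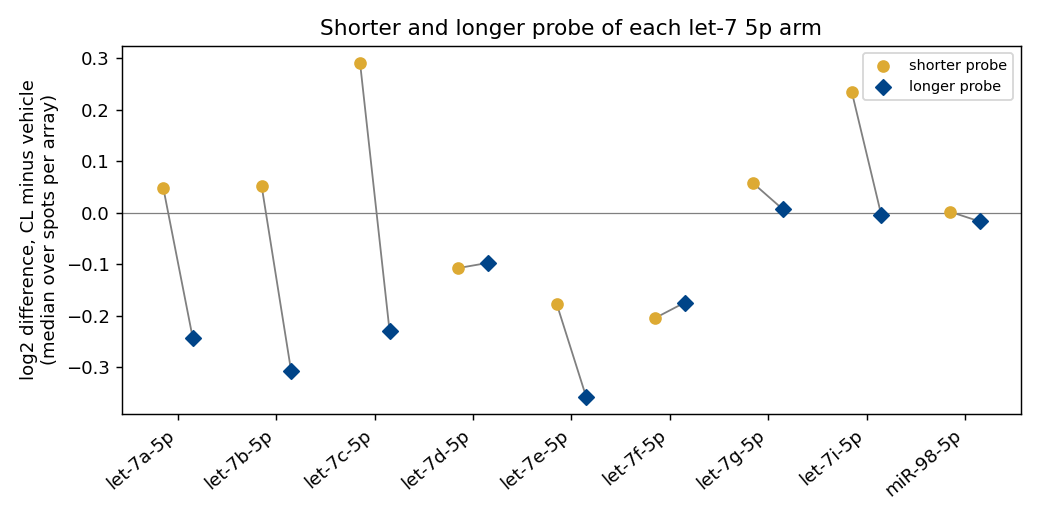
CL-minus-vehicle difference, on the log2 scale after normalization, for the shorter and the longer probe of each member, each from the median over its spots on each array (20, less those marked as outliers). The longer probe is lower for 7 of 9 members, most of all for let-7c-5p.

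The let-7 values depended on whether the base composition and length of the probes were taken into account. On each array, the deviation of every miRNA from its own mean over the 4 arrays was taken. A linear fit of these deviations on the longest probe's length and shares of C and G was subtracted. The step also removes any treatment difference that goes with these probe features. After it, 8 of 9 members were below 0 with a median of −0.28, beside 0.01 over all tested miRNAs. let-7f-5p was then at −0.50 (limma adjusted p = 0.0560), miR-98-5p at −0.42, let-7e-5p at −0.39 and let-7a-5p at −0.33. These 4 of 9 passed at an unadjusted p of 0.05 as lower, beside 18.6% of all tested miRNAs, and none passed the adjusted threshold, beside 7.29% of all. Only let-7c-5p stayed above 0, at 0.05. The direction of let-7g-5p and let-7i-5p thus flipped with this step, to −0.28 and −0.20.

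The other arms and relatives of the family were faint. Of 11 3p arms of these hairpins on the array, which are mostly degraded when the 5p arm is loaded into Argonaute, 7 were detected on no array and none on all 4. The 3 that could be tested did not pass. let-7c-1-3p was at 4.20 and 4.14 in the vehicle samples against 4.44 and 4.42 after CL, a difference of 0.26 (limma adjusted p = 0.184). let-7a-1-3p differed by 0.03 (limma adjusted p = 0.879) and was detected on 3 arrays. let-7d-3p was detected on the vehicle arrays alone, with a measured difference of 0.05 (limma adjusted p = 0.784). With the scanner software's totals per miRNA in place of the spots, let-7d-3p was at −12.43 (limma adjusted p = 0.00168), a difference that its spots, at 0.05 after normalization, did not show.

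Among miRNAs outside the list, let-7k and miR-1961 carried the same seed in RefSeq.
let-7k: uGAGGUAGgagguugugug
miR-1961: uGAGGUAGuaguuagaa

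miR-1961 was detected on no array. Over its length let-7k differs at a single base from let-7b-5p, which was far brighter, at 12.53 on both vehicle arrays. The let-7k probes were not set against the members' sequences, and cross-hybridisation was not tested. let-7k was detected on both vehicle arrays, at 4.33 and 4.50, and on neither CL array, at 4.05 and 4.29. Its measured difference was −0.25, or 1.19-fold lower after CL, and did not pass the test (limma adjusted p = 0.290). Its CL signals lay above the dimmest detected signal of their arrays, so that this fold is an estimate and not a minimum. With the scanner's totals let-7k was at −9.37 (limma adjusted p = 0.00444), a difference that its spots, at −0.25 after normalization, did not show.

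Several let-7 hairpins sit beside hairpins of the miR-99/100 and miR-125 families, and are thought to be transcribed with them. Mirlet7c-1 (chr16:77599657-77599750) lay 656 bp from Mir99a and 46522 bp from Mir125b-2. Mirlet7a-2 (chr9:41536716-41536811), inside the lncRNA gene Mir100hg, lay 5211 bp from Mir100 and 45114 bp from Mir125b-1. Mirlet7e (chr17:17830352-17830444), within Spaca6, lay 94 bp from Mir99b and 367 bp from Mir125a. The neighbours whose difference was largest are shown to make clear that their seeds differ from that of let-7, with bases 2 to 8 again in capitals. miR-99a-5p and miR-100-5p share theirs and differ elsewhere by a single base, and cross-hybridisation between them was not tested.
miR-99a-5p: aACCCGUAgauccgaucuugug
miR-100-5p: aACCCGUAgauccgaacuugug
miR-125b-5p: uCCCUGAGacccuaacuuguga

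These 3 neighbours were higher on both CL arrays than on both vehicle arrays. miR-99a-5p was at 10.15 and 9.75 in the vehicle samples against 10.85 and 10.94 after CL. The difference of 0.94 ± 0.18 had an unadjusted limma p of 0.00471 and an adjusted p of 0.0909, or 0.0499 with the replicate number as a block. miR-125b-5p, made from both of the chr9 and chr16 loci, was at 11.40 and 10.92 against 11.99 and 12.06, a difference of 0.86 ± 0.20 (limma adjusted p = 0.103). miR-100-5p was at 8.73 and 8.53 against 9.30 and 9.41, a difference of 0.72 ± 0.14 (limma adjusted p = 0.0909). Without vehicle replicate 1, limma takes the lone vehicle array to vary like the CL arrays, so that only differences are described. miR-99a-5p, miR-99a-3p and miR-125b-5p were then higher after CL and miR-125a-3p was lower, at −0.52. The summed fibroblast and mural markers and leukocyte markers were also higher on both CL arrays, as given above, but the members of each list went opposite ways. In the first, miR-199a-3p (10.68 and 10.07 with vehicle, 11.43 and 11.52 with CL) and miR-214-3p (a difference of 0.95) were higher after CL while miR-143-3p (−0.43) and miR-145a-5p (−0.75) were lower. In the second, miR-142-3p (2.09) and miR-142-5p (1.94) were higher, miR-223-3p was at 0.09 and miR-150-5p at −0.89. None passed the adjusted threshold, and their part in the differences of the neighbours was not tested.

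Of 11 neighbour arms on the array 8 were tested, and 4 of these were higher and 0 lower at an unadjusted p of 0.05, beside 18.6% higher and 16.2% lower over all tested miRNAs. No neighbour passed the adjusted threshold. The fourth was miR-99a-3p, detected on the CL arrays alone, with a measured difference of 0.41 (limma adjusted p = 0.113). This is 1.33-fold as an estimate and not as a minimum. With the replicate number as a block its unadjusted p in limma was 0.0504, which leaves 3 of the 4. Of the neighbours of let-7e, miR-99b-5p was at 0.05 (limma adjusted p = 0.784), miR-99b-3p at 0.06 and miR-125a-5p at −0.00366 (limma adjusted p = 0.981). The remaining one, miR-125a-3p, was at −0.38 (limma adjusted p = 0.219), with both CL arrays below both vehicle arrays. Its size depended on the processing, at −1.53 with its longest probe only and −1.29 where arrays were scaled to the 75th percentile over detected probes.

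Set against the let-7 arm of the same locus within each array, the log2 ratio of miR-99a-5p to let-7c-5p was higher by 0.76 after CL, and that of miR-125b-5p to let-7c-5p by 0.68. The ratio to let-7a-5p was higher after CL by 0.79 for miR-100-5p and by 0.93 for miR-125b-5p. The ratio to let-7e-5p was higher by 0.31 for miR-99b-5p and by 0.26 for miR-125a-5p. The groups did not overlap in any of the 6 pairs, and the exact permutation p was 0.333, the smallest that 2 arrays per group allow. Of the same ratio for all other tested miRNAs, 62.3% did not overlap against let-7a-5p, 77.6% against let-7c-5p and 80% against let-7e-5p, so that the separation is common to most miRNAs. These pairs were set after the values had been seen, by the hairpins' positions. let-7a-5p and let-7c-5p each come from a second locus without such neighbours, and the array does not tell the loci apart.

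**Figure D5:**
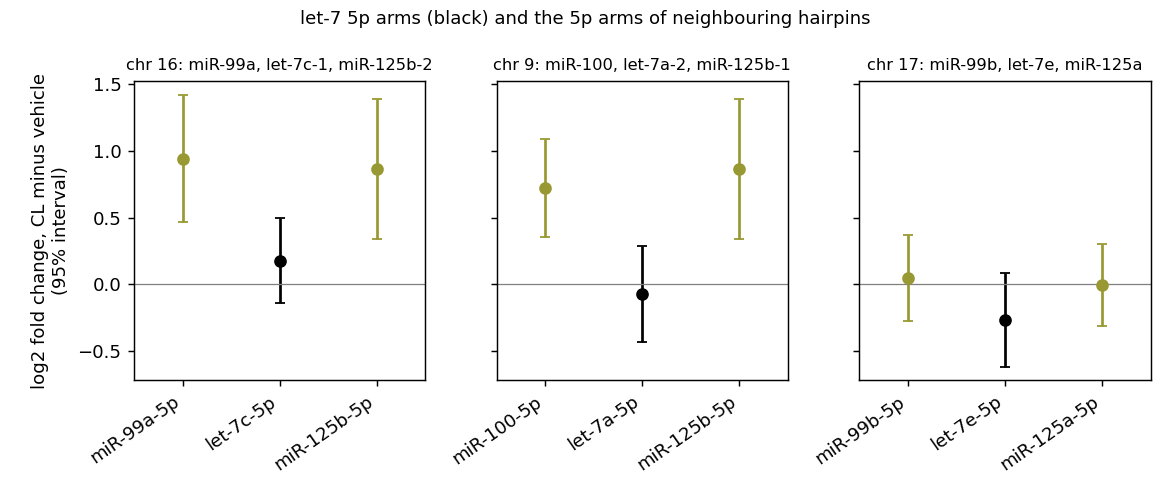
CL-minus-vehicle difference with its 95% limma interval, on the log2 scale, for a let-7 5p arm (black) and the 5p arms of the hairpins beside it, 1 panel per locus. The neighbours of let-7c and let-7a lie at 0.72 to 0.94 and their let-7 arms at 0.18 and −0.07, while let-7e and its neighbours lie between −0.26 and 0.05.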

How the data were processed

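The authors hybridised Cy3-labelled visWAT SVF RNA to 4 one-colour Agilent mouse miRNA arrays and deposited Feature Extraction 10.7.1.1 files, which give the linear intensity of every spot with its background and flags. They also deposited a table of processed log2 values, described as quantile-normalized, which was used as an alternative only. Groups were taken from the sample labels. The files give no read depth, and the number of arrays limits the precision.

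The deposited mean spot intensity was background-corrected by normexp without offset (limma 3.58.1, R 4.3.3), and control spots and outlier spots were removed. Then came log2 transformation, quantile normalization of the log2 values and median polish over the 40 spots of a member. The test was limma (lmFit, then eBayes, two-sided) on the 425 of 1247 miRNAs that were detected on both vehicle or both CL arrays, with p-values adjusted over all 425 by the method of Benjamini and Hochberg. The procedure was tested on simulated data. SAM, named in the methods of the study, was an alternative, since with 2 arrays per group its relabellings cannot reach the threshold. For a miRNA detected in 1 group only, the measured difference was given and no minimum fold. No source states whether replicates were separate experiments, and p-values measure the spread between these pools. Deviations from the group mean correlated at 0.12 across miRNAs between arrays of the same replicate number, and no label pairs these arrays.

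Sequences and hairpin positions were read from RefSeq tables (GRCm38.p6), where 1017 of 1247 array miRNAs had a mature sequence, and 12 of 12 member hairpins held a probe position given in the files. The text names all members, the tested 3p arms, same-seed miRNAs and neighbour arms, and the 3 miRNAs closest to the members' mean profile. The members and lists were chosen with earlier results of these data known. Alternatives covered background correction, normalization, summary, filter, test, replicate block, probe sequence trend and leaving out each array.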

Additional observations from a re-analysis of the deposited data

How the results depend on the processing

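No member passed an adjusted p of 0.05 under any of 23 alternatives, and 26 of the 207 member values changed sign. Alternatives that altered only the filter, the test or the block left every difference as it was, so that no sign could change there. let-7g-5p with the scanner's totals, and let-7a-5p and let-7c-5p with the deposited table, were at 0. let-7e-5p was below 0 in all 23, from −0.40 to −0.054, and let-7g-5p turned most often, in 7. What limits these results is the pair of arrays per group, and the row of the slide, which cannot be told apart from treatment. The cause of the changes below was not tested.

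The count of all miRNAs past the adjusted threshold, 0 of 425 (148 at an unadjusted p of 0.05 in limma, 60 by SAM and 52 by the methods' t-test, both 0 once adjusted), was 1 and 97 where arrays were scaled to the 75th percentile over detected and over all probes, 64 without normalization, 44 with median centring, 27 with the scanner's totals, 7 with the deposited table, 2 with limma's intensity trend, 40 with the replicate number as a block, and 31 with the probe sequence trend removed. It was 0 to 114 when an array was left out, 114 being without vehicle replicate 1. An alternative chosen after seeing the data, a median polish tolerance of 1e-06 in place of 0.01, gave 109 with the replicate block. The count of members past an unadjusted p of 0.05 was 1 (let-7e-5p) with normexp with local background and an offset of 50, 2 (let-7c-5p higher, let-7e-5p lower) without the filter, 4 with the trend removed and 0 to 0 when an array was left out. The members' median of −0.03 was 0.14 with scaling to all probes, −0.18 without normalization, −0.14 with median centring, −0.17 with the longest probe only, −0.28 with the trend removed, and −0.12 to 0.07 when an array was left out. The median of all tested miRNAs moved to 0.14 with scaling to all probes and to −0.12 without normalization, so that the members moved with it there. The replicate block moved no member past a threshold, and of the named miRNAs it brought miR-99a-5p past the adjusted threshold (0.0499) and took miR-99a-3p out of the unadjusted one (0.0504).

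Differences that changed sign were, with scaling to detected probes, let-7f-5p (0.00142), miR-98-5p (0.016), let-7d-3p (−0.16) and miR-125a-5p (0.012). With scaling to all probes they were let-7d-5p (0.067), let-7f-5p (0.14), miR-98-5p (0.16), let-7d-3p (−0.015) and miR-125a-5p (0.15). Without normalization they were let-7c-5p (−0.13), let-7g-5p (−0.078), let-7a-1-3p (−0.025), let-7d-3p (−0.015) and miR-99b-5p (−0.087), and with median centring let-7c-5p (−0.087), let-7g-5p (−0.041) and miR-99b-5p (−0.051). The mean over spots turned miR-125a-5p (0.00869), and the longest probe alone turned let-7c-5p (−0.20), let-7g-5p (−0.00435) and let-7i-5p (−0.028). The scanner's totals turned let-7a-5p (0.066), let-7f-5p (0.045), let-7d-3p (−12.43) and miR-125a-5p (0.00989), and the deposited table let-7g-5p (−0.057), let-7i-5p (−0.017) and let-7d-3p (−1.44). Removing the trend turned let-7g-5p (−0.28), let-7i-5p (−0.20), let-7a-1-3p (−0.54), let-7c-1-3p (−0.19) and let-7d-3p (−0.14). Leaving out an array gave both signs for let-7a-5p (−0.15 to 0.020), let-7b-5p (−0.12 to 0.096), let-7d-5p (−0.20 to 0.030), let-7g-5p (−0.021 to 0.095), miR-98-5p (−0.11 to 0.071), let-7a-1-3p (−0.033 to 0.046), miR-99b-3p (−0.033 to 0.11) and miR-125a-5p (−0.018 to 0.015). Of the neighbours, miR-99a-5p had an adjusted p of 0.0402 with scaling to all probes, 0.0400 without normalization and 0.0374 with the trend removed. With scaling to all probes, miR-100-5p (0.0462), miR-125b-5p (0.0441) and miR-99a-3p (0.0336) passed as well. miR-99a-3p also passed with the scanner's totals (0.00226) and the deposited table (0.00426). It was detected on neither vehicle array, and its difference from the spots was 0.41. With the block and the tolerance of 1e-06, miR-99a-5p (0.00734), miR-125b-5p (0.0121) and miR-100-5p (0.0191) passed. With the scanner's totals, let-7d-3p (0.00168) and let-7k (−9.37, adjusted p 0.00444) passed as lower. Both were undetected on the CL arrays, and their spots, at 0.05 and −0.25, did not show differences of that size.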
